A study of Bos taurus with 32 samples.

Results

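Oxidative phosphorylation is the pathway by which mitochondria burn the hydrogen carried by NADH and succinate and store the energy as ATP. Complex I takes electrons from NADH and complex II takes them from succinate in the citrate cycle. Complex III passes them to cytochrome c and complex IV passes them to oxygen, and complex V (ATP synthase) makes ATP from the proton gradient that complexes I, III and IV build. All subunits of complex II and most subunits of the other complexes are encoded in the nucleus, while the mitochondrial genome encodes core subunits of complexes I, III, IV and V. The subunits described here were the array's probes whose gene name began with NDUF, UQCR, COX4 to COX8, ATP5 or SDHA to SDHD, or was CYC1 or CYCS. They were 72 probes for 70 genes, out of 15208 probes and 15077 gene names that were not controls. Complex I held 35 probes for 34 genes, complex II 4, complex III 5, complex IV 12 and complex V 16 probes for 15 genes. The rule is one of names, so NDUFA4, which is listed with complex I, is now counted with complex IV by many authors. ATP5S, counted with complex V here, was matched by accession to a gene that RefSeq now lists as DMAC2L. The array carried 0 probes for the 26 gene names of the mitochondrial genome that were looked up, and the cytochrome c probe carried another name and fell outside the rule.

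Every probe was a single stretch of 60 bases, so each value described the part of a transcript that the probe matches. Of the 72 probes, 22 held the polyadenylation signal AATAAA on the strand as printed in the files, which was the only motif and the only strand searched, and among all probes the share was 11.27%, against 30.56% here. A probe with this signal lies close to a 3′ end if the transcript is cut there, which these letters alone do not show. The windows below are shown because they belong to the isoform pairs and to the subunits that the results turn on, and the capitals mark AATAAA. COX6A1 and COX7A2 are the forms found in most tissues of pairs whose other forms, COX6A2 and COX7A1, belong to heart and skeletal muscle, COX6B2 is the testis form of COX6B, CYC1 is cytochrome c1 of complex III, and ATP5A1 is the alpha subunit of ATP synthase.
COX6A1: agagatggcttaAATAAAtaatttagtcat
COX6B2: ctttaagcctcaAATAAAgttgtgttactg
COX7A1: cgaacaggcatcAATAAAtgtgctggtttc
COX7A2: ttgtattagctgccaccAATAAAgcagtct
COX8: ctcccttgcaacAATAAAgtctatttaaag
CYC1: gcccactgtggaAATAAAttaagtttctca
ATP5A1: taatcacattaaAATAAAggttccatgttg
ATP5F1 (ABR1681): gcattttctttgAATAAAatttggtacctg
The probes of different isoforms shared no run longer than 8 bases, so the paired isoforms were read by different sequences. ATP5F1, the b subunit of ATP synthase, was an exception in the other direction, since both of its probes carried the same 60 bases and measured the same transcript at separate places on the array.

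The samples were endometrium of 8 Japanese Black cows, none of them lactating, collected at Day 15 of a cycle. The 4 repeat breeder (RB) cows had failed to conceive after repeated inseminations although the uterus and ovaries appeared healthy, and the 4 non-RB cows had conceived, had the pregnancy ended with a prostaglandin analog and had then resumed cycles. Caruncular (CAR) tissue, the aglandular sites where the placenta attaches, and intercaruncular (ICAR) tissue, which holds the glands, were taken from the uterine horn ipsilateral and the horn contralateral to the corpus luteum. Each cow therefore gave 4 one-colour (Cy3) arrays, and each of the 8 cells of group, compartment and horn held 4 arrays, 32 in all. Samples of the same number within a group were taken as the same cow. The tissue was whole, so fewer cells of a type and less RNA per cell cannot be told apart.

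A level here is the log2 of the processed spot intensity minus the log2 of the array's 75th percentile of it, and a level of 0 is the brightness of that percentile. These percentiles were 1165 to 4857 units of intensity. Per array, 74.3% to 85.85% of probes read well above background. All 5 epithelial and all 6 stromal marker probes of the endometrium were well above background on every array. Of the 72 subunit probes, 71 were well above background on all 32 arrays. The exception was COX6A2, the heart and muscle form, which was not well above background on 2 arrays.

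A set of 5 arrays had an uneven surface, and this touched many values below. On those arrays the 100 copies of a single GAPDH probe sequence differed by an SD over 0.3. The SD was 0.430 on non-RB CAR ipsilateral 4, 0.395 on RB CAR ipsilateral 4, 0.536 on non-RB ICAR ipsilateral 2, 1.32 on non-RB CAR contralateral 2 and 0.869 on non-RB ICAR contralateral 1. So 4 of the 5 were non-RB arrays. On non-RB CAR contralateral 2, 14 of the 72 subunit spots were marked as outliers by the scanner software and were left out of every fit. The array has 82 columns of spots, and 22 subunit probes lay in columns 1 to 28. On non-RB CAR ipsilateral 4 their median departure from each probe's median over the 32 arrays was -0.68, against 0.25 for the other 50 subunit probes, and on non-RB ICAR ipsilateral 2 it was -1.06 against 0.08. The order was the reverse on non-RB CAR contralateral 2, at -0.10 against -0.46. ATP5A1, in column 5, read 1.61, 2.19, 2.04 and 1.44 on the uneven arrays other than non-RB CAR contralateral 2, and between 3.03 and 4.02 on the remaining arrays. The part of the uneven surface in each result below was not tested beyond repeating it without these 5 arrays.

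**Figure D1:**
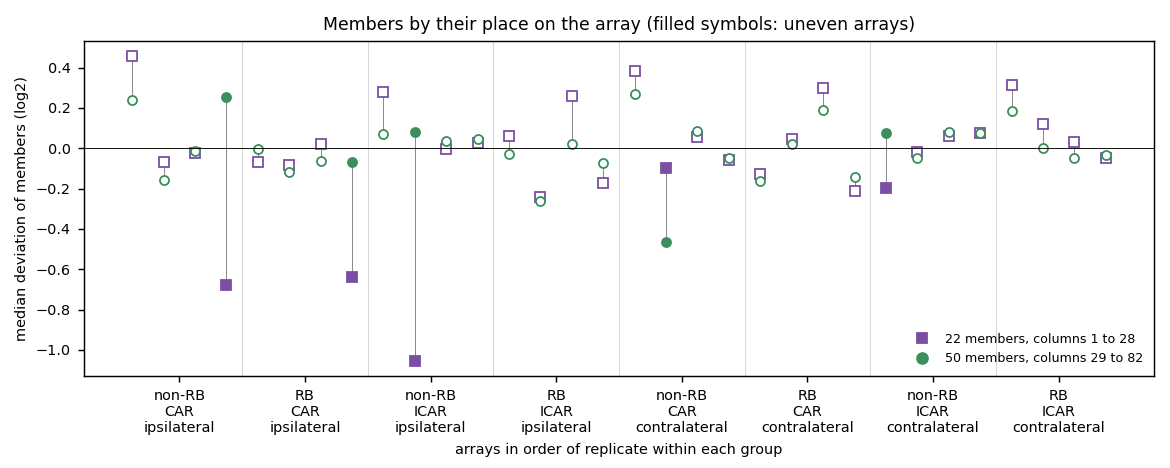
Median departure of the subunit probes from their 32-array medians (log2, vertical axis) on each array in order of replicate within its group, squares for the 22 probes in columns 1 to 28 and circles for the other 50, filled on the uneven arrays. The squares fall to -1.06 on non-RB ICAR ipsilateral 2, and among the even arrays the gap is largest on RB ICAR ipsilateral 3, at 0.26 against 0.02.

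The subunits varied less between arrays than most probes tested did. Of the 72 subunit probes 71 were well above background on all 32 arrays, while a probe entered the tested set with 8 of the 32. Probes of like brightness were not compared apart, so the part of brightness in this was not tested. Over the 27 even arrays, the SD within a group had a median of 0.24 across the 72 subunit probes, against a median of 0.40 and quartiles of 0.28 and 0.59 over all probes tested, and 68 of the 72 lay under the median of all probes. The smallest SD was that of NDUFS3, a core subunit of complex I, at 0.0979. The largest was that of COX6B2 at 0.60, followed by NDUFV2, the small flavoprotein subunit of complex I, at 0.55. ATP5B, the catalytic beta subunit of ATP synthase, had 0.47 and NDUFB2, an accessory subunit of complex I, had 0.46, and these 4 were the members above the median of all probes. The subunits also moved together to a modest degree. Over the same 27 arrays, the 2556 pairs of members had a median Pearson r of 0.37, with 0.38 for the 797 pairs within a complex and 0.37 for the 1759 pairs between complexes. These points share arrays and scaling, so the correlations are a description.

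**Figure D2:**
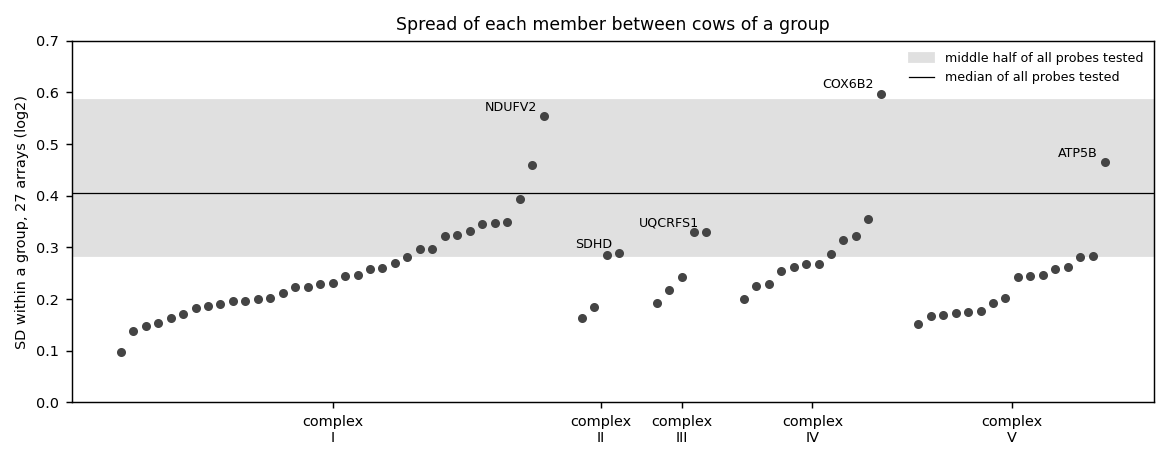
SD within a group over the 27 even arrays (log2, vertical axis) for each of the 72 subunit probes, ordered within each complex, with the median and the interquartile range of all probes tested as a line and a grey band. COX6B2 at 0.60 and NDUFV2 at 0.55 stand above the line and 68 of the 72 points lie below it.

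The isoform pairs of complex IV had r below the median of 0.37 over all pairs of members, whose lower quartile was 0.12. COX6A2 lay near background, and the part of this in its r was not tested. COX6A1 and COX6A2 had r = 0.24 over these 27 arrays, COX6B and COX6B2 had -0.0046, and COX7A1 and COX7A2 had -0.12. Among the genes for the c subunit of ATP synthase, ATP5G1 and ATP5G3 had r = 0.90, ATP5G1 and ATP5G2 had 0.28, and ATP5G2 and ATP5G3 had 0.47. The probe pair of ATP5F1, with equal sequences, had r = 0.93, which shows how closely a repeat of the same measurement was followed. The probes of NDUFAB1, the mitochondrial acyl carrier protein, lie at different places of the transcript and had r = 0.19.

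Summarised by complex, the 8 cells lay close together. The level of a complex on an array was taken as the median departure of its probes from their 32-array medians. For complex I the cell means of this level spanned 0.11, from -0.06 ± 0.03 (SD, n = 4) in RB CAR ipsilateral to 0.05 ± 0.09 in RB ICAR contralateral. The span was 0.21 for complex II, 0.23 for complex IV and 0.18 for complex V, and all of these were lowest in RB cows of the ipsilateral horn. Complex III had the widest span, 0.47, from -0.25 ± 0.23 in RB CAR ipsilateral to 0.22 ± 0.32 in non-RB CAR ipsilateral. In CAR ipsilateral the complex III level was 0.60, -0.03, -0.06 and 0.38 on the non-RB arrays and 0.02, -0.31, -0.18 and -0.52 on the RB arrays, so the groups overlapped. In ICAR ipsilateral it was 0.22, 0.08, 0.16 and 0.16 on the non-RB arrays and 0.04, -0.33, -0.11 and -0.27 on the RB arrays. The highest RB level was thus under the lowest non-RB level, 0.08, which came from the uneven array of this cell. With a local correction of the array surface the non-RB mean went from 0.15 ± 0.06 to 0.12 ± 0.26. The RB mean went from -0.17 ± 0.16 to -0.09 ± 0.14, so the spread of the non-RB level depended on the scaling. This gap was picked from the readings of all complexes and cells, which can hold such a case without a difference between the groups.

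**Figure D3:**
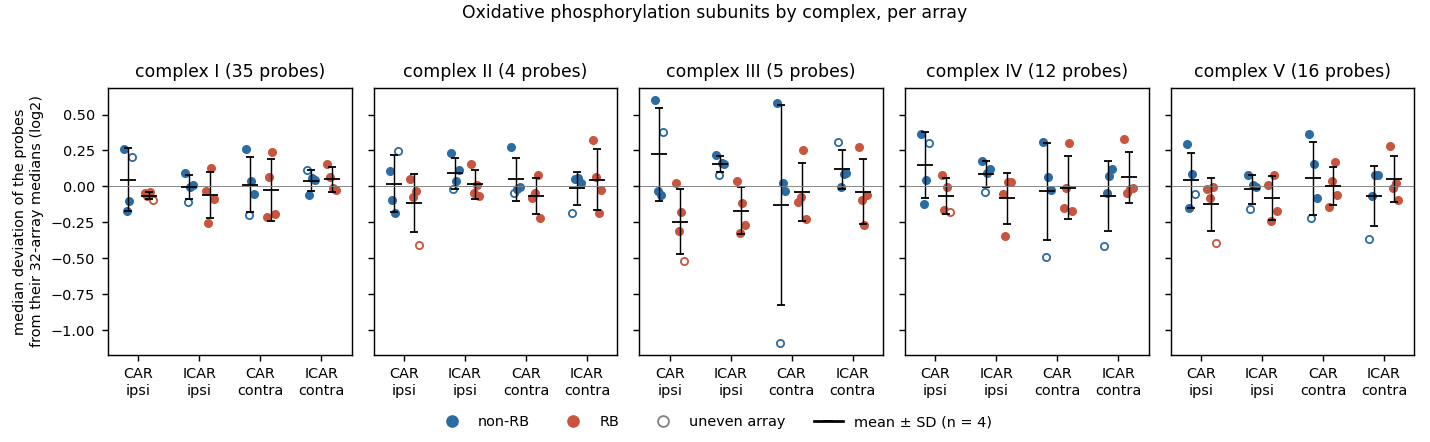
Level of each complex per array (median departure of its probes from their 32-array medians, log2, vertical axis) by compartment and horn, blue for non-RB and red for RB cows, open symbols for uneven arrays, bars for mean ± SD (n = 4). Complex III shows the widest span of cell means, 0.47, and its lowest point, -1.09, is the uneven array non-RB CAR contralateral 2.

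The first question of the study was which transcripts separate RB from non-RB cows within a given compartment and horn. For the subunits of oxidative phosphorylation the fitted differences were small and 0 of the 72 probes passed an adjusted p of 0.05 in any of the 4 compartments. The fit (limma, Benjamini-Hochberg over all probes tested) called 0% of 13080 probes in CAR ipsilateral, 0% of 12889 in ICAR ipsilateral, 0% of 13135 in CAR contralateral and 0% of 12980 in ICAR contralateral. The smallest adjusted p of a subunit was 0.9997 in CAR ipsilateral, 0.8628 in ICAR ipsilateral, 0.9998 in CAR contralateral and 0.9998 in ICAR contralateral. A difference of 1 on the log2 scale, which is a change by a factor of 2, lay outside the 95% interval on both sides for 56, 61, 60 and 58 of the 72 probes in the same order. For the others a difference of that size was not excluded by the interval.

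At an unadjusted p under 0.05, 0 subunits were higher and 3 lower in RB cows in CAR ipsilateral, where 3.41% of all probes passed in either direction. In ICAR ipsilateral it was 0 and 1, beside 3.69% of all probes. In CAR contralateral it was 0 and 1, beside 1.74%, and in ICAR contralateral 0 and 0, beside 1.6%. These counts out of 72 are near the shares of all probes. Subunits without overlap between the groups were 0 higher and 2 lower in RB cows in CAR ipsilateral. They were 0 and 4 in ICAR ipsilateral, 0 and 2 in CAR contralateral and 1 and 1 in ICAR contralateral. The share of all probes without overlap was not computed, and 72 members can hold such cases without a difference between the groups. By direction, fewer subunits than probes at large were higher in RB cows in 3 of the 4 cells. The difference was above 0 for 26 of the 72 in CAR ipsilateral, beside 52.5% of all probes, for 24 in ICAR ipsilateral, beside 46.9%, for 26 in CAR contralateral, beside 50.2%, and for 39 in ICAR contralateral, beside 52.7%. These counts depended on the setting. In ICAR ipsilateral the count was 38 with quantile normalization, 39 with a local correction of the array surface and 11 without non-RB cow 2, whose array is uneven. In CAR ipsilateral it was 33 with quantile normalization, 32 without non-RB cow 1 and 16 without non-RB cow 2, and in CAR contralateral it was 4 with the slide as a block, 14 without non-RB cow 2 and 40 without non-RB cow 1. The median difference of the subunits was -0.11 in CAR ipsilateral (all probes 0.02), -0.08 in ICAR ipsilateral (all probes -0.03), -0.05 in CAR contralateral (all probes 0.0011) and 0.01 in ICAR contralateral (all probes 0.02). The ipsilateral medians were thus below that of all probes and inside the interquartile range of all probes, which ran from -0.22 to 0.24 in CAR ipsilateral and from -0.27 to 0.22 in ICAR ipsilateral. With quantile normalization the median of the subunits was -0.02 in CAR ipsilateral and 0.01 in ICAR ipsilateral, so the sign in ICAR ipsilateral turned with the scaling.

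**Figure D4:**
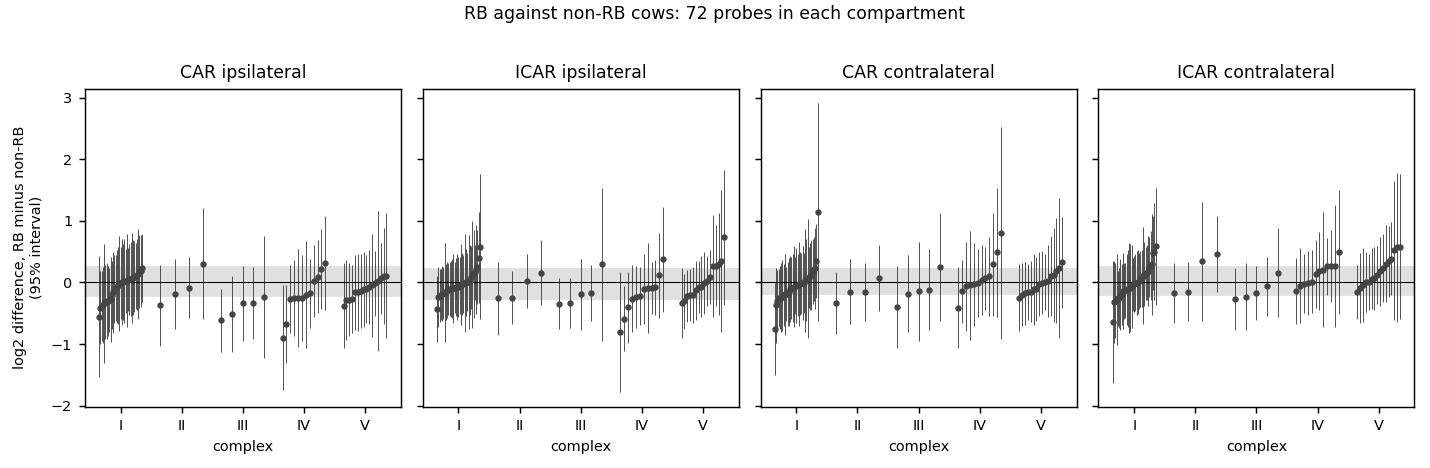
Difference RB minus non-RB (log2, vertical axis) with its 95% interval for each subunit probe, ordered within complexes I to V, in each compartment and horn, over a grey band for the interquartile range of all probes tested. All 5 complex III probes lie below 0 in CAR ipsilateral, and the interval of most probes crosses 0.

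Complex III had a median probe difference below 0 in each cell, but its array levels did not all follow. It receives electrons from ubiquinol, and its measured members were the core proteins UQCRC1 and UQCRC2, the Rieske iron-sulfur protein UQCRFS1, cytochrome c1 (CYC1) and the small subunit UQCR. UQCR10 and UQCRQ, which lie outside the rule of names, are given under the other observations. In RB cows 5 of its 5 probes had a difference below 0 in CAR ipsilateral, with a median of -0.34, and 4 of 5 did in each of ICAR ipsilateral (-0.20), CAR contralateral (-0.14) and ICAR contralateral (-0.17). The median stayed below 0 in each cell under quantile normalization, normexp background correction, the deposited log2 values, a local correction of the array surface and without the uneven arrays, and ranged under these from -0.34 to -0.21 in CAR ipsilateral and from -0.32 to -0.13 in ICAR ipsilateral. In the contralateral horn the local correction brought it nearer to 0, at -0.08 in CAR and -0.04 in ICAR. The mean level of complex III in CAR contralateral ran the other way, at -0.04 over RB and -0.13 over non-RB arrays. The uneven non-RB array of that cell read -1.09. Between the RB and the non-RB array of slides 6 and 8, the level differed by -0.43 and -0.05 in ICAR ipsilateral. It differed by -0.25 and -0.69 in CAR contralateral and by -0.14 and 0.28 in ICAR contralateral. In CAR ipsilateral it differed by -0.44 within session 2 and -0.90 within session 3.

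UQCRC2 was 1.64, 1.37, 1.41 and 1.81 on the non-RB arrays of CAR ipsilateral and 0.97, 1.06, 0.84 and 0.89 on the RB arrays. All 4 RB values lay below all 4 non-RB values. The difference was -0.62 (SE 0.23), with p = 0.0215 from limma before adjustment and 0.0286 from a two-sided exact permutation test, the smallest that 4 against 4 arrays can give. UQCRC2 was named because it was among the 3 members with the smallest p in this cell, so these p-values describe a choice from 72. Without the uneven arrays the difference was -0.52. Within a scan session it was -0.55 (3 RB and 2 non-RB arrays of session 2) and -0.92 (1 of each, session 3), while no slide held both groups in this cell. In the other cells UQCRC2 overlapped between the groups.

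CYC1 and UQCRC1 were among the 4 members without overlap between the groups in ICAR ipsilateral. They were named because they were among the 3 members with the smallest p there, so their p-values also describe a choice from 72. CYC1 was 4.18, 4.05, 4.22 and 4.12 in non-RB and 4.00, 3.64, 3.85 and 3.70 in RB cows, a difference of -0.35 (SE 0.18; limma p = 0.0942; exact permutation p = 0.0286). UQCRC1 was 2.88, 2.94, 2.83 and 2.90 in non-RB and 2.69, 2.51, 2.41 and 2.60 in RB cows, a difference of -0.33 (SE 0.18; limma p = 0.0924; exact permutation p = 0.0286). In both, each RB value was below each non-RB value, and the limma test, which draws the error of each probe towards that of all probes, did not pass 0.05. The differences without the uneven array of this cell were -0.38 for CYC1 and -0.32 for UQCRC1. With quantile normalization they were -0.20 and -0.22. Between the single RB and the single non-RB array of a slide, CYC1 differed by -0.52 on slide 6 and -0.05 on slide 8, and UQCRC1 by -0.23 and -0.25. UQCRFS1 over the whole uterus is described below.

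Complex IV held the isoform pairs and the largest differences in the ipsilateral horn. Its 12 probes had a median difference of -0.22 in CAR ipsilateral (8 lower in RB), -0.16 in ICAR ipsilateral (10 lower), 0.02 in CAR contralateral (6 lower) and 0.16 in ICAR contralateral (4 lower). The sign in the contralateral horn rested on the uneven arrays, since without them the medians were -0.13 and -0.0096 there, against -0.08 and -0.24 in CAR and ICAR of the ipsilateral horn. Under the scaling alternatives the ipsilateral medians of CAR ranged from -0.23 to -0.11 and those of ICAR from -0.16 to -0.08.

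COX6A1 was 3.14, 2.19, 2.49 and 2.59 in non-RB and 2.14, 2.03, 2.07 and 1.46 in RB cows in CAR ipsilateral. Every RB value lay below every non-RB value, by a narrow gap between 2.19 and 2.14. The difference was -0.68 (SE 0.29; limma p = 0.0387; exact permutation p = 0.0286) and without the uneven arrays, which include the lowest RB value, it was -0.53. COX6B2, the testis form, was -0.62, -0.11, 0.75 and -0.89 in non-RB and -0.76, -1.42, -1.55 and -0.73 in RB cows of the same cell. The groups overlapped at the uneven non-RB array. The difference was -0.90 (SE 0.39; limma p = 0.0416; exact permutation p = 0.114), without the uneven arrays -1.25, and within session 3, which holds both uneven arrays of this cell, it was 0.16. COX6A1, COX6B2 and UQCRC2 made up the count of 3 given above for CAR ipsilateral, which was 0 without RB cow 3. COX6B2 was -0.58 without non-RB cow 3, the cow with its highest value, and -0.57 with the scan session as a block.

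COX6A2, the heart and muscle form, had levels from -8.40 to -5.47, near background. In ICAR ipsilateral it was -6.14, -5.47, -6.13 and -6.13 in non-RB and -6.42, -6.69, -6.81 and -6.28 in RB cows. All RB values lay below all non-RB values, and the highest value, -5.47, came from the uneven array. The difference was -0.59 (SE 0.24; limma p = 0.0348; exact permutation p = 0.0286), without that array -0.42 and with normexp background correction -0.34. On slide 6 the difference of the single RB from the single non-RB array was -0.15 and on slide 8, where the non-RB array is the uneven one, it was -0.96. COX5B, a subunit that binds zinc, also did not overlap in ICAR ipsilateral, with 3.07, 3.01, 3.25 and 3.20 in non-RB and 2.94, 2.96, 2.02 and 2.99 in RB cows. Its difference of -0.40 (limma p = 0.151; exact permutation p = 0.0286) rested mostly on the value 2.02 of RB replicate 3.

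The remaining isoforms of complex IV gave these cell means. Those of COX7A2 ran from 2.51 to 2.69 and those of COX6B from 3.13 to 3.36. The muscle form COX7A1 ran from 1.48 ± 0.20 (SD, n = 4) in RB ICAR ipsilateral to 2.05 ± 0.56 in RB CAR ipsilateral. COX4, which the array lists without an isoform number, ran from 4.19 ± 0.97 in non-RB ICAR contralateral to 4.69 ± 0.24 in RB ICAR contralateral, and the low mean and wide SD of the former came with the uneven array, on which COX4 read 2.75 against 4.59 to 4.76 on the other 3.

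Complex I, the entry point for NADH, was close to even in CAR ipsilateral. Of its 35 probes, 17 were higher and 18 lower in RB cows there, with a median of -0.01. The lower members were 23 in ICAR ipsilateral (median -0.07), 24 in CAR contralateral (-0.05) and 20 in ICAR contralateral (-0.03). The sign of these medians turned under quantile normalization in CAR ipsilateral (0.06), ICAR ipsilateral (0.02) and ICAR contralateral (0.06), and in CAR contralateral it did not (-0.02). Among the subunits that carry electrons, NDUFV1, which binds the flavin, had cell means from 2.60 to 2.90, and NDUFS7, an iron-sulfur subunit next to the ubiquinone site, had cell means that spanned 0.14.

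NDUFV2, which carries an iron-sulfur cluster beside NDUFV1, was 2.91, 2.98, 2.27 and 1.99 in non-RB and 2.22, 1.29, 1.47 and 2.17 in RB cows in CAR contralateral. RB cows 2 and 3 were the lowest, while RB cows 1 and 4 lay among the non-RB values. The difference was -0.75 (SE 0.33; limma p = 0.0491; exact permutation p = 0.114), without the uneven array -0.60, with the slide as a block -0.40 and with the scan session as a block -0.27. RB cows 2 and 3 were also the lowest RB cows for NDUFV2 in the other 3 cells, at 1.43 and 1.34 in CAR ipsilateral, 2.27 and 1.47 in ICAR ipsilateral and 1.48 and 1.33 in ICAR contralateral.

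NDUFA3, a small membrane subunit, had the largest difference of any member in the same cell, 1.15 (SE 0.78; limma p = 0.178; exact permutation p = 0.286). Its values were 0.69, -2.67, 0.97 and 0.93 in non-RB and 0.56, 1.71, 1.57 and 0.67 in RB cows, so the difference came with the value of -2.67 on the uneven array. Without that array it was 0.26, and with the slide as a block -0.21. NDUFA9 did not overlap in either compartment of the contralateral horn. It was 2.53, 2.20 and 2.32 in non-RB (1 spot left out) and 2.15, 2.17, 2.16 and 1.93 in RB cows in CAR contralateral, a difference of -0.25. In ICAR contralateral it was 2.52, 2.33, 2.23 and 2.23 in non-RB and 2.22, 1.89, 2.11 and 2.07 in RB cows, a difference of -0.26. The closest values of the groups, 2.20 against 2.17 and 2.23 against 2.22, were nearly equal, and NDUFA9 was picked out after its values were seen.

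NDUFS8, an iron-sulfur subunit, was the member with the smallest p in ICAR contralateral. It was 0.33, 1.08, 0.93 and 1.07 in non-RB and 1.22, 1.79, 1.23 and 1.09 in RB cows, so the groups did not overlap. The difference was 0.48 (SE 0.26; limma p = 0.102; exact permutation p = 0.0286). Without the uneven array, which gave the value 0.33, it was 0.31, and it was 0.15 with the slide and 0.12 with the scan session as a block.

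Complex II, which also belongs to the citrate cycle, had 1 of 4 probes higher in RB cows in CAR ipsilateral (median -0.14), 2 of 4 in ICAR ipsilateral (-0.11), 1 of 4 in CAR contralateral (-0.15) and 2 of 4 in ICAR contralateral (0.10). The median in CAR ipsilateral was -0.01 with the local surface correction, -0.02 with quantile normalization and -0.02 without the uneven arrays (2 of 4 higher). The signs in ICAR changed with the setting, where quantile normalization gave 0.02 in the ipsilateral horn and leaving out the uneven array gave -0.08 in the contralateral horn. SDHA, the flavoprotein, had cell means from 3.44 to 3.75. SDHB, the iron-sulfur protein, was -0.44, 0.17, 0.22 and 0.18 in non-RB and 0.69, 0.74, 0.65 and -0.08 in RB cows of ICAR contralateral, so 3 RB cows were above all non-RB cows and RB cow 4 was not. Its difference there was 0.47 (SE 0.27; limma p = 0.122; exact permutation p = 0.114), and 0.31 without the uneven array. SDHD, a membrane anchor, was 2.33, 2.12 and 1.98 in non-RB (1 spot left out) and 1.86, 1.89, 1.69 and 1.80 in RB cows of CAR contralateral, with no overlap and a difference of -0.34 (SE 0.22; limma p = 0.164; exact permutation p = 0.0286 over these 7 values).

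In complex V, the ATP synthase, the 16 probes had a median of -0.11 in CAR ipsilateral (12 lower in RB), -0.04 in ICAR ipsilateral (9 lower), -0.01 in CAR contralateral (9 lower) and 0.15 in ICAR contralateral (13 higher). Without the uneven arrays the medians were -0.12 in CAR ipsilateral (12 lower), -0.10 in ICAR ipsilateral (14 lower), -0.16 in CAR contralateral (13 lower) and 0.02 in ICAR contralateral (8 lower). The medians in ICAR ipsilateral and CAR contralateral turned sign under quantile normalization (0.04 and 0.0010) and under the local surface correction (0.05 and 0.0045), and that in CAR ipsilateral was -0.0044 under quantile normalization. ATP5D, the delta subunit of the central stalk, was -0.49, 0.14, 0.04 and -0.04 in non-RB and 0.85, 0.17, 0.16 and 0.02 in RB cows of ICAR contralateral. Its difference of 0.38 (SE 0.26; limma p = 0.176; exact permutation p = 0.114) rested on the first cow of each group. The c subunit genes were steady, with cell means from 2.68 to 2.93 for ATP5G1, from 4.13 to 4.39 for ATP5G2 and from 3.57 to 3.85 for ATP5G3.

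Batches of arrays were laid out unevenly over the groups. The arrays came from 8 slides and 4 scan sessions, RB cows 2 and 3 lay entirely on slide 2, RB cow 4 on slide 6 and non-RB cow 4 on slide 7, and in CAR ipsilateral no slide held both groups. In CAR contralateral the members' median moved from -0.05 to -0.34 with the slide as a block and to -0.30 with the scan session as a block. Each of slides 6 and 8 held 1 RB and 1 non-RB array of this cell, and there the median difference over all members was -0.25 and -0.49. In ICAR ipsilateral it was -0.10 and 0.08 on the same slides, and in ICAR contralateral -0.10 and 0.28. In CAR ipsilateral it was -0.15 within session 2 and -0.38 within session 3. These are single pairs of arrays or few more, so only the values are given.

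**Figure D5:**
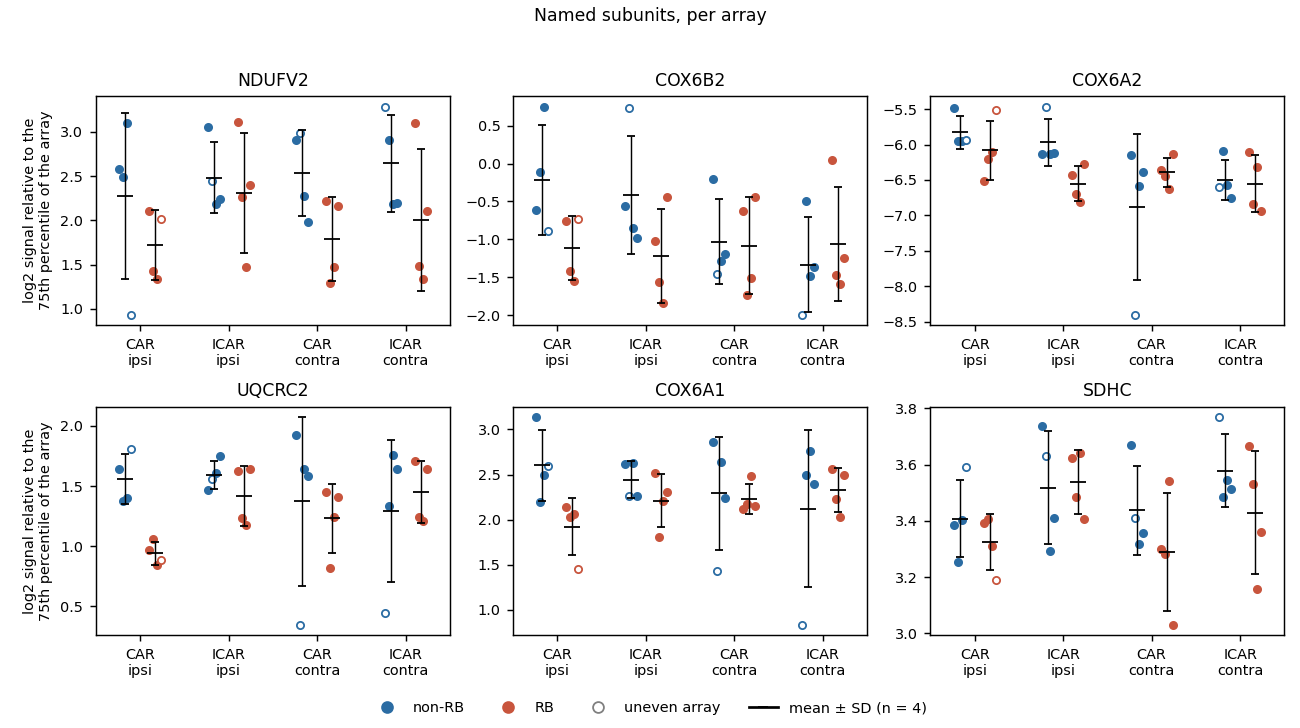
Level of 6 named subunits on every array (log2 signal relative to the array's 75th percentile, vertical axis) by compartment and horn, blue for non-RB and red for RB cows, open symbols for uneven arrays, bars for mean ± SD (n = 4). UQCRC2 and COX6A1 separate the groups in CAR ipsilateral and COX6A2 does in ICAR ipsilateral, while NDUFV2, COX6B2 and SDHC overlap in all 4 cells.

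The study also compared RB with non-RB cows over the whole uterus. Here the 4 arrays of each cow were averaged, so that 4 cows stood against 4. Where the spot on non-RB CAR contralateral 2 was left out, as for NDUFA6 and UQCRFS1, the mean of non-RB cow 2 is over 3 arrays and lacks that sample. The fit called 0% of 12919 probes and 0 of the 72 subunits (smallest adjusted p 1). At an unadjusted p under 0.05, 0 subunits were higher and 0 lower, beside 2.21% of all probes, and 25 of the 72 were higher in RB cows, beside 52% of all probes. That count was 45 with quantile normalization, 38 without non-RB cow 1 and 17 without non-RB cow 2. The median was -0.03 against 0.01 for all probes, and 0.05 with quantile normalization. Within the subunits 5 of 5 complex III probes were lower, with a median of -0.19, and 4 of 5 were lower with quantile normalization. The members with the smallest p were NDUFA6, UQCRFS1 and NDUFV2. NDUFA6, an accessory subunit, averaged 3.20, 2.96, 3.10 and 3.17 in the non-RB cows and 3.07, 2.75, 2.85 and 2.71 in the RB cows, a difference of -0.26 (SE 0.15; limma p = 0.123; exact permutation p = 0.0571). UQCRFS1 averaged 1.54, 0.96, 0.89 and 1.01 against 0.98, 0.65, 0.87 and 0.57, a difference of -0.33 (SE 0.19; limma p = 0.124; exact permutation p = 0.114). NDUFV2 averaged 2.96, 2.71, 2.43 and 1.84 against 2.64, 1.62, 1.40 and 2.17, a difference of -0.53 (SE 0.32; limma p = 0.134; exact permutation p = 0.200). UQCRFS1 was -0.18 without non-RB cow 1 and NDUFV2 was -0.34 without RB cow 3, so 1 cow carried a large part of each value. NDUFA6 was -0.14 with the local surface correction. The 95% interval excluded a difference of 1 for 68 of the 72.

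The compartments were compared over all 32 arrays with group and horn in the model. The cow was not a term, so the limma p-values and intervals of this fit ignore that each cow gave both compartments. The alternative with the cow as a block and the exact tests over the 8 cows use this pairing. With the cow as a block 4 subunits passed an unadjusted 0.05, beside 3019 of all probes. CAR and ICAR differ in glands, and the fit called 1.35% of 12919 probes at an adjusted p of 0.05 and 0 of the 72 subunits (smallest adjusted p 0.299). At an unadjusted p, 16.2% of all probes passed 0.05, beside 0 subunits higher and 1 lower in CAR. The difference was above 0 for 29 of the 72, beside 53.1% of all probes. Its median was -0.01, against 0.02 for all probes, and its range was -0.28 to 0.19. The 95% interval excluded a difference of 1 for 72 of 72. The number of all probes called depended on the fit, being 1086 with the cow as a block and 0 without the uneven arrays, and the subunits called were 0 in both.

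The subunit that passed the unadjusted threshold was SDHC, a membrane anchor of complex II. The difference of CAR from ICAR, averaged over the horns, was -0.23, -0.22, -0.06 and 0.01 in the non-RB cows and -0.30, -0.16, 0.03 and -0.27 in the RB cows, so 6 of 8 cows had less in CAR. The fitted value was -0.15 (SE 0.07; limma p = 0.0469 before adjustment; exact permutation p = 0.0313 over sign changes of the 8 cows). NDUFS8 was higher in CAR in 8 of 8 cows, by 0.19 (limma p = 0.105; exact permutation p = 0.0078, the smallest that 8 cows can give), with differences from 0.03 to 0.59. The fitted value of NDUFS8 was 0.14 without the uneven arrays and 0.13 without non-RB cow 1. NDUFA6 had a fitted value of -0.19. SDHC, NDUFS8 and NDUFA6 were named as the members with the smallest p here, so these p-values describe a choice from 72.

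The horns were compared in the same way, also without a term for the cow. The fit called 0% of 12919 probes and 0 of the 72 subunits (smallest adjusted p 0.9999). At an unadjusted p under 0.05, 1 subunit was higher and 2 were lower in the ipsilateral horn, beside 1.36% of all probes, and 27 of the 72 were higher, beside 51.1%. Over the alternatives the count of subunits that passed ran from 1 to 14, the latter with the scan session as a block. That of all probes ran from 97 to 1257, the latter with the slide as a block. The count of all probes under the scan session block is not given here. The 14 therefore cannot be set beside 1.36% and is not read as a result about the subunits. The median was -0.04, against 0.0039 for all probes, and -0.10 with the slide as a block, and the 95% interval excluded a difference of 1 for 72 of 72. NDUFA1, an accessory subunit of complex I, was lower in the ipsilateral horn in 8 of 8 cows. Its differences were -0.21, -0.47, -0.04 and -0.46 in the non-RB cows and -0.11, -0.34, -0.07 and -0.07 in the RB cows, a fitted value of -0.22 (limma p = 0.0294; exact permutation p = 0.0078), and -0.17 without the uneven arrays. NDUFS4, an accessory subunit on the arm that takes up NADH, was lower in 7 of 8 cows, by a fitted -0.28 (limma p = 0.0400; exact permutation p = 0.0156), and by -0.12 without the uneven arrays. COX6A2 was higher in 7 of 8 cows, by 0.48 (SE 0.17; limma p = 0.0095; exact permutation p = 0.0391). Its value of 1.54 in non-RB cow 2 came with the reading of -8.40 on an uneven array, and the fitted value was 0.24 without the uneven arrays and 0.09 with normexp background correction.

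Whether the RB difference depended on the compartment or the horn was tested on the cow differences. For CAR minus ICAR the fit called 0% of 12919 probes and 0 of the 72 subunits (smallest adjusted p 0.9993). At an unadjusted p, 0 subunits passed 0.05, beside 0.867% of all probes, and 24 of the 72 had a value above 0, beside 50.4%. The members with the largest values were NDUFV3 (-0.90), COX5B (0.78) and NDUFB1 (-0.62), with limma p-values of 0.141, 0.0969 and 0.154 and exact permutation p-values of 0.257, 0.114 and 0.257. In each of them 1 or both of the uneven arrays of non-RB cow 2 gave the extreme value, and without the uneven arrays they were -0.20, 0.30 and -0.08.

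For ipsilateral minus contralateral the fit again called 0% of 12919 probes and 0 of the 72 subunits (smallest adjusted p 0.7894). At an unadjusted p under 0.05, 0 subunits were higher and 4 lower, beside 6.07% of all probes, and 27 of the 72 had a value above 0, beside 49.1%. The 4 were COX6B2, ATP5O, COX6A2 and COX8. For COX6B2 the ipsilateral minus contralateral difference was 0.52, 1.28, 1.33 and 0.35 in the non-RB cows and -0.60, 0.12, -0.14 and 0.26 in the RB cows. Every non-RB cow had a larger value than every RB cow. The RB difference between the horns was -0.96 (SE 0.29; limma p = 0.0078 before adjustment; exact permutation p = 0.0286), and without the uneven arrays it was -0.39. ATP5O, the subunit that joins the stalk to the catalytic head, had 1.01, 0.55, -0.09 and 0.08 in the non-RB cows and -0.35, -0.32, -0.16 and -0.09 in the RB cows, a difference of -0.62 (limma p = 0.0317; exact permutation p = 0.0571), and -0.12 without the uneven arrays. COX8, listed under its heart name and matched to COX8A in RefSeq, had 0.44, 0.23, 0.01 and 0.26 against 0.13, -0.29, -0.18 and -0.31, a difference of -0.40 (limma p = 0.0485; exact permutation p = 0.0571). COX6A2 had -0.64 (limma p = 0.0479; exact permutation p = 0.114), and -0.07 with normexp background correction.

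For some members, most of the spread left after removing the mean of each cell lay between cows. Differences between compartments were removed with these means, so cow and compartment were not set against each other. Over the 27 even arrays, the share of the variance within a group that lay between cows had a median of 0.34 over the subunits and 0.37 over all probes. It was above the upper quartile of all probes, 0.54, for 17 of the 72. Over all 32 arrays the medians were 0.23 and 0.30. The members picked for the largest shares were NDUFS8 with 0.73, ATP5B with 0.69, NDUFS1, the largest iron-sulfur subunit of complex I, with 0.68, and NDUFA3 with 0.66. Over all 32 arrays these shares were 0.36, 0.50, 0.44 and 0.36. NDUFA3 lay between 1.18 and 1.71 in RB cows 2 and 3 and between 0.28 and 0.85 in RB cows 1 and 4 over the 4 samples of each. ATP5B was 2.38, 2.55, 2.28 and 2.39 in RB cow 2 and 0.68, 1.44, 1.29 and 1.41 in RB cow 4, in the order CAR ipsilateral, ICAR ipsilateral, CAR contralateral and ICAR contralateral. NDUFB10 ran the other way, with 1.93 to 2.52 in RB cows 2 and 3 and 2.64 to 3.13 in RB cows 1 and 4. RB cows 2 and 3 shared slide 2, so cow and slide cannot be told apart for them.

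The genes around the pathway gave 0 calls at an adjusted p of 0.05 in each of the 9 comparisons. Of 5 probes for regulators of mitochondrial biogenesis, TFAM, which packages and transcribes mitochondrial DNA, passed an unadjusted 0.05 with a higher level in RB cows, by 0.63 in CAR ipsilateral (SE 0.28; limma adjusted p = 0.9997) and by 0.40 over the whole uterus (SE 0.17; limma adjusted p = 1). Of 13 probes for carriers, porins and import, 1 was lower and 1 higher in CAR ipsilateral at an unadjusted p. They were SLC25A3, the phosphate carrier that feeds ATP synthase, at -0.83 (SE 0.28), and TIMM8B, an import chaperone, at 0.73 (SE 0.30), both with a limma adjusted p of 0.9997. In ICAR ipsilateral VDAC1, the porin of the outer membrane, was at 1.02 (SE 0.42; limma adjusted p = 0.8628), which was the probe of the list that passed an unadjusted 0.05 there. Of 8 glycolysis probes 0 passed in the 4 cells, and of 3 assembly factors 0 passed.

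Markers of the cell types of the endometrium were read as summed signals, in which the brightest probes weigh most. Probe by probe, limma gave 0 epithelial, stromal or leukocyte markers at an unadjusted p under 0.05 between the groups in CAR ipsilateral. In ICAR ipsilateral it gave 1 epithelial marker lower in RB cows and 0 leukocyte markers. The stromal markers of CAR ipsilateral had a median difference of 0.23, although their summed signal averaged 6.09 in RB and 6.37 in non-RB cows. In CAR ipsilateral the log2 of the summed signal of the 5 epithelial markers ran from 3.48 to 4.17 on the non-RB arrays and from 2.85 to 3.56 on the RB arrays, while the 6 stromal markers ran from 5.95 to 7.01 and from 5.89 to 6.52. In ICAR ipsilateral the epithelial markers ran from 3.21 to 4.59 and from 3.92 to 4.12, and the 7 leukocyte markers from 0.15 to 0.48 on the non-RB arrays and from -0.07 to 0.12 on the RB arrays. In CAR contralateral the leukocyte markers ran from 0.16 to 0.30 and from -0.14 to 0.21. The epithelial markers there ran from 1.95 to 3.96 on the non-RB arrays and from 2.98 to 4.25 on the RB arrays, and the stromal markers from 5.27 to 6.39 and from 5.74 to 6.52. In ICAR contralateral the epithelial markers ran from 3.69 to 4.25 and from 2.37 to 4.42, and the leukocyte markers from -0.07 to 0.37 and from -0.09 to 0.11. Between CAR and ICAR, 2 of 5 epithelial markers were lower and 3 of 6 stromal markers higher in CAR at an unadjusted p under 0.05. The part of cell composition in the differences of UQCRC2, COX6A1, CYC1, UQCRC1 and the other members was not tested.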

How the data were processed

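Endometrial RNA of 4 RB and 4 non-RB cows was hybridised to one-colour (Cy3) bovine Agilent arrays, 1 array per compartment and horn. Per the file headers, the authors scanned the arrays and made the deposited intensity of each spot with Agilent Feature Extraction 9.5, which subtracts background and corrects a surface trend, without normalization between arrays. The deposited log2 table of the authors, made in GeneSpring, equalled the log2 intensity minus a constant of the array and was an alternative here. Its scaling to the 75th percentile was found by setting it against the scanner values and is not given in the sources used here.

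The members and gene lists were chosen with earlier results of these data known. Levels were log2 of the processed intensity minus the log2 of the array's 75th percentile. Spots marked as outliers were missing. A probe entered a fit if 2 or more of the 8 arrays (8 of the 32 for comparisons over all arrays) read it well above background and each group had at least 3 values. Such probes were fitted with limma 3.58.1 in R 4.3.3 (4 against 4 arrays per cell; cow means over the whole uterus; 32 arrays with group and horn or compartment as terms; cow differences for the dependence of the RB difference), and p-values were adjusted by Benjamini-Hochberg over all probes tested. The fit was checked on data with known answers. Named were, in each comparison, the members past an adjusted p of 0.05 or, with 0 called, the 3 with the smallest p, together with the isoforms and the catalytic or electron-carrying subunits. The members also had two-sided exact permutation tests, computed in R. Names were matched to RefSeq (55 by accession, 11 by symbol, 6 by synonym, assembly ARS-UCD2.0). Alternatives were other scalings and background corrections, filters, blocks for slide, scan session and replicate number, the methods' t-test over 16 against 16 arrays, leaving out each cow, and, chosen after seeing the data, a correction by the 100 nearest spots and leaving out the 5 uneven arrays. Precision is bounded by the few arrays per group, and p-values measure the spread between these samples. RB and non-RB cows of the same number were not paired: their arrays deviated together with r from -0.24 to 0.42, above 0.1 in 11 of 16 pairs. The list of citrate cycle enzymes is not reported here.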

Additional observations from a re-analysis of the deposited data

Results flagged for a closer look

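In 32 of 361 sets of 4 arrays the highest or lowest value stood apart from the other 3 by Dixon's criterion, which chance alone meets in about 1 of 20 sets. Of these, 23 lay on the 5 uneven arrays, and 21 of the 23 were low. On non-RB CAR ipsilateral 4 they were ATP5A1 at 1.61 and NDUFS3 at 2.80, and on RB CAR ipsilateral 4 ATP5A1 at 2.19, COX6A1 at 1.46, SDHB at -0.43 and NDUFV3 at -0.14. On non-RB ICAR ipsilateral 2 they were COX4 at 3.54, ATP5A1 at 2.04, COX7B at 0.59, COX6A2 at -5.47, NDUFV3 at -1.07 and NDUFB1 at 0.25. On non-RB CAR contralateral 2 they were ATP5G2 at 3.36, NDUFA3 at -2.67 and COX5B at -0.32. On non-RB ICAR contralateral 1 they were COX4 at 2.75, ATP5A1 at 1.44, ATP5O at -0.39, SDHB at -0.44, ATP5C1 at 2.43, COX7A1 at 1.04, SDHD at 0.22 and the complex II level at -0.18.

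On arrays with an even surface, COX6A1 was 2.48 on RB CAR contralateral 3, ATP5O 1.53 on non-RB CAR ipsilateral 2 and SDHA 3.78 on RB CAR ipsilateral 1. ATP5G1 was 2.58 and SDHB -0.081 on RB ICAR contralateral 4, and COX5B was 2.02 on RB ICAR ipsilateral 3. COX6A2 was -5.48 on non-RB CAR ipsilateral 1. The complex II level was 0.27 on non-RB CAR contralateral 1 and the complex IV level 0.33 on RB ICAR contralateral 1. These 9 lay on 8 different arrays.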

How the results depend on the processing

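Under every alternative run, 0 subunits passed an adjusted p of 0.05 in the 9 comparisons. In CAR contralateral the members' median of -0.05 became -0.34 with the slide and -0.30 with the scan session as a block, and NDUFA3 became -0.21 and -0.22, reversing its sign; these blocks take the difference from the few slides or sessions that hold both groups. Leaving out 1 cow moved the members' median between -0.18 and -0.03 in CAR ipsilateral, -0.14 and -0.01 in ICAR ipsilateral, -0.16 and 0.11 in CAR contralateral, -0.04 and 0.07 in ICAR contralateral and -0.10 and 0.0032 over the whole uterus. Without non-RB cow 1, 40 of the 72 were higher in CAR contralateral. The replicate number as a block gave 2 subunits at an unadjusted p under 0.05 in CAR ipsilateral and 0 in the other cells and over the whole uterus. With the cow as the replicate block it gave 4 between CAR and ICAR, where 3019 of all probes passed, and 4 between the horns. These blocks changed no call of a subunit. Over all probes, CAR against ICAR gave 0 to 1086 calls, with 1086 for the cow block, 915 without RB cow 3, 717 without non-RB cow 2, and 0 without any other cow. The whole uterus gave 67 calls with the methods' t-test over 16 against 16 arrays and 66 with the arrays as independent samples in limma, none of them a subunit, and 5 with the cow as a random block. Signal near background limits COX6A2, and the 4 cows per group limit every member.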

Other observations

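The array held probes for 8 further genes of the pathway under names outside the rule, for which RefSeq gave the current symbols ATP5IF1, CYCS, NDUFA11, NDUFA12, NDUFA13, NDUFA4L2, UQCR10 and UQCRQ. Of these, 0 passed an adjusted p of 0.05 in the 9 comparisons (limma). CYCS, cytochrome c, had levels from -2.15 to 0.22 and a difference of -0.48 (SE 0.40; limma adjusted p = 0.9997) between RB and non-RB cows in CAR ipsilateral. ATP5IF1, the inhibitor of ATP synthase, had levels from 2.47 to 3.94 and a difference of -0.18 (SE 0.26; limma adjusted p = 0.9997) there. The RB minus non-RB differences of UQCR10 and UQCRQ, of complex III, were -0.27 and 0.09 in CAR ipsilateral. They were 0.31 and -0.04 in ICAR ipsilateral, 0.07 and 0.18 in CAR contralateral and 0.03 and 0.14 in ICAR contralateral. NDUFA4L2, a paralog of NDUFA4, had a difference between RB and non-RB cows that was lower in the ipsilateral than in the contralateral horn, by -0.51 (SE 0.19; limma adjusted p = 0.7894).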
